A study of Mus musculus with 2 samples.

Results

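The transcription factor genes of the melanocyte lineage described here were Mitf, Sox10, Pax3, Tfap2a, Zeb2, Zeb1, Irf4, Tbx2, Snai2 and Foxd3, chosen by name as 10 of the 32285 genes measured. All 10 were in both expression matrices. The cells were melanocytes of mouse back skin that carried Dct-rtTA; tetO-H2B-GFP, so that under doxycycline the promoter of the melanocyte gene Dct drove a nuclear green fluorescent protein (GFP). Both groups received doxycycline in the diet for 4 days, and live GFP+ cells were sorted. Early-anagen melanocyte stem cells (McSCs) came from hair follicles at anagen II, 4 days after depilation of mice 8 weeks old, and bulb melanocytes came from dissected anagen VI hair bulbs of mice 5 weeks old that had not been depilated. Each group was 1 droplet single-cell library made from the pooled cells of 4 mice. The early-anagen library used version 3 of the 10x Genomics 3' kit after trypsin, and the bulb library used version 2 after collagenase and dispase. Age, depilation, dissociation, kit version and depth therefore cannot be told apart from the difference in cell state between the libraries. With 1 library per group no test across animals was possible, and all intervals below cover counting error only.

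These factors act together from the neural crest to the pigment cell. Mitf is the basic helix-loop-helix factor that directs melanocyte development and binds E boxes in pigmentation genes, and its melanocyte promoter is a known target of Sox10, of Pax3 and of factors that answer to cyclic AMP. Tfap2a and Irf4 work with Mitf at pigmentation genes, Foxd3 is a neural crest factor known to restrain the melanocyte fate, and Zeb1, Zeb2, Snai2 and Tbx2 are repressors known from cell migration, epithelial-mesenchymal transition and the control of proliferation.

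RefSeq promoter sequences on GRCm38.p6 were matched for 5 of the 10 genes and for 12 of a list of 16 known Mitf targets. The 250 bases before 5 of these starts are printed because the levels below set Mitf beside its targets and Foxd3 apart from the rest. Capitals mark the motifs that were searched on both strands, namely CATGTG or CACATG (an E box bound by Mitf), CACGTG (the palindromic E box), TGACGTCA (the cyclic AMP response element) and ACAAAG or CTTTGT (a Sox motif). The Mitf start is the third of 3 listed and is known as the promoter of the melanocyte isoform (chr6:97991533-97991782, plus strand). The Foxd3 window was chr4:99656049-99656298 on the plus strand. The 3 pigmentation genes are Tyr, which encodes tyrosinase (chr7:87493513-87493762, minus strand), Tyrp1, which encodes a related enzyme (chr4:80833963-80834212, plus strand), and Trpm1, which encodes melastatin (chr7:64153585-64153834, plus strand).
Mitf: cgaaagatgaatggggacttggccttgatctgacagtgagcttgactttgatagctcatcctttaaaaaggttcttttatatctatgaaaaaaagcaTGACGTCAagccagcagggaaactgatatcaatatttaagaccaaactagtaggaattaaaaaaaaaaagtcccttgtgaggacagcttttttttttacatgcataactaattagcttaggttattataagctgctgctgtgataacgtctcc
Foxd3: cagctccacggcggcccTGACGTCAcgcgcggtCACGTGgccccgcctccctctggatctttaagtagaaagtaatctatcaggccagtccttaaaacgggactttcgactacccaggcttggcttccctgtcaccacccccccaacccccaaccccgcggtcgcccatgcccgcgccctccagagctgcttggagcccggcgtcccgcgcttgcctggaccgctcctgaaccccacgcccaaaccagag
Tyr: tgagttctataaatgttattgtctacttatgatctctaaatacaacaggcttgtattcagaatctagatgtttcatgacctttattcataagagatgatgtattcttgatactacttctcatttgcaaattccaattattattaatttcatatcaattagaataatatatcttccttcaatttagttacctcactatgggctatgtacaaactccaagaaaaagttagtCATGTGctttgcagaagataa
Tyrp1: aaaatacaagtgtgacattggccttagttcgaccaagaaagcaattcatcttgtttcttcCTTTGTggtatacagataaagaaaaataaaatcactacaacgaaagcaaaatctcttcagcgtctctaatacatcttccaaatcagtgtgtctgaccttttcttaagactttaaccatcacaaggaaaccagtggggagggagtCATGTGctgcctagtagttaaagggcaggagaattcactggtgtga
Trpm1: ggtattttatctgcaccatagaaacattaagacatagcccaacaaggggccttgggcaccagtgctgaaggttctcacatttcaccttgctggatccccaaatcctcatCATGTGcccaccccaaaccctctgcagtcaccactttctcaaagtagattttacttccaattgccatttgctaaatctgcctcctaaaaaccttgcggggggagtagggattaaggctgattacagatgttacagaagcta

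The Mitf window held TGACGTCA with its first base 153 bases before the start, and neither of the other Mitf starts held a searched motif. The Foxd3 window held TGACGTCA at 233 bases and CACGTG at 217 bases before its start. The E box CATGTG lay 21 bases before the Tyr start, 46 before the Tyrp1 start and 141 before the first of the Trpm1 starts. The other Trpm1 start, with its window at chr7:64185209-64185458, had neither CATGTG nor CACATG and held CACGTG at 229 bases. Of 32851 promoters of the same length, 12.3% held CATGTG or CACATG, 6.02% the palindromic E box, 1.55% the cyclic AMP response element and 16.5% the Sox motif. In the 12 matched target genes, 5 had CATGTG or CACATG (Tyr, Tyrp1, Trpm1, Mc1r and Slc24a5), and none of the 5 matched transcription factor genes had either. CACGTG was counted apart and lay before starts of Foxd3 and of the targets Met, Rab27a and Trpm1. The counts of CATGTG or CACATG therefore do not cover every E box found. A match describes letters in this window and was not read as a bound site. The kits count the 3' ends of transcripts, so the starts of Mitf could not be told apart in the counts.

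The cells analysed had at least 1 unique molecular identifier (UMI) of Dct, fewer than 3 of the keratin genes Krt10 and Krt14 together, less than 5% mitochondrial UMIs and more than 10000 UMIs in early anagen or 5000 in the bulb. This left 2785 early-anagen McSCs of 11010 barcodes, with 75718468 UMIs and a median of 24528 per cell, and 3734 bulb melanocytes of 4327 barcodes, with 55883067 UMIs and a median of 14286.5 per cell. The libraries shared 1 cell barcode. All 8 melanocyte markers listed reached 10 counts per 1000000 UMIs (CPM) in both libraries, with sums of 18322.5 CPM in early anagen and 63192.8 CPM in the bulb. The 8 keratinocyte markers summed to 21.8 CPM and 48.7 CPM, the 6 fibroblast markers to 1.32 CPM and 0.823 CPM, the 6 immune markers to 17.8 CPM and 11.7 CPM, and the 4 endothelial markers to 16.1 CPM and 1.65 CPM. Of these non-melanocyte markers, Krt17 and Sfn passed 10 CPM in the bulb, at 30.3 and 13.9 CPM against 4.25 and 5.07 in early anagen. Cd74 and Egfl7 passed it in early anagen, at 14.2 and 15.9 CPM against 0.412 and 1.61 in the bulb. In the bulb Krt15, Krt1, Krt79, Ptprc, Cd3e, Cdh5, Col1a1, Col3a1, Lum, Pdgfra and Ngfr were at 0 UMIs, as was Cdh5 in early anagen.

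Mitf was the most abundant of the 10 genes in both states, and the order below it differed between them. In early-anagen McSCs the levels ran from Mitf at 446 CPM (441 to 451) through Pax3 at 376, Zeb2 at 205, Sox10 at 120, Tfap2a at 115, Foxd3 at 110, Zeb1 at 30.3, Irf4 at 24.9 and Tbx2 at 24.0 to Snai2 at 15.6 CPM. The intervals of Irf4 (23.8 to 26.1) and Tbx2 (23.0 to 25.2) overlapped, and those of other neighbours in this order did not, though Sox10, Tfap2a and Foxd3 lay next to each other. In bulb melanocytes the order was Mitf at 330 CPM (325 to 334), Sox10 at 155, Pax3 at 141, Zeb2 at 71.9, Tfap2a at 47.5, Irf4 at 36.6, Snai2 at 19.6, Tbx2 at 16.4, Foxd3 at 6.57 and Zeb1 at 5.80 CPM. There only Foxd3 (5.91 to 7.27) and Zeb1 (5.18 to 6.46) had overlapping intervals. These are counts of transcript ends and were not scaled by transcript length. Among all genes with a UMI, Mitf ranked 308 of 19151 in early anagen and 532 of 16128 in the bulb, whereas Foxd3 ranked 1367 and 7487.

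**Figure D1:**
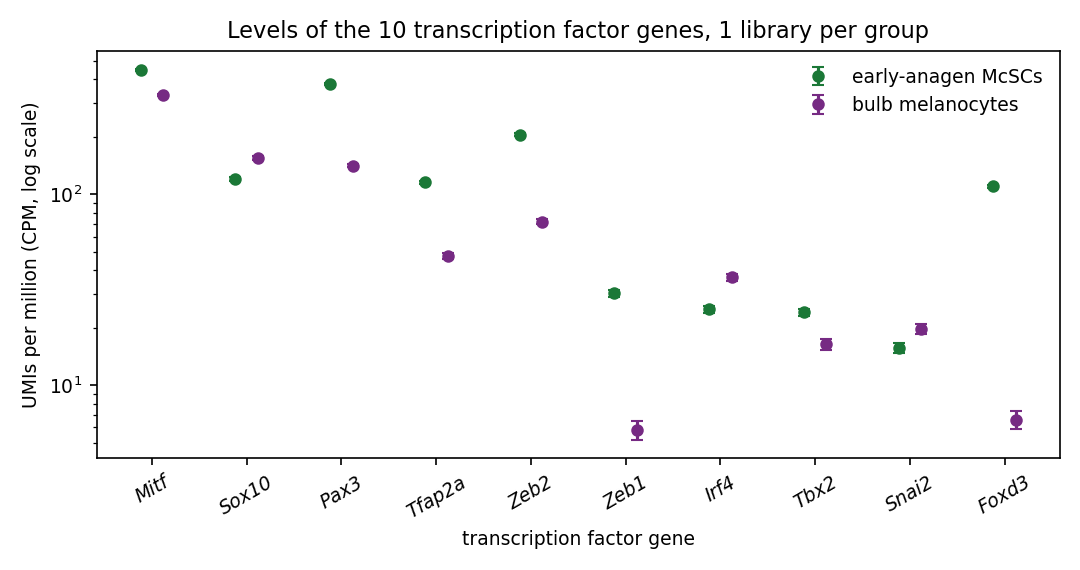
Levels of the 10 transcription factor genes in CPM on a log axis, for early-anagen McSCs (green) and bulb melanocytes (purple), each 1 library summed over cells. Bars are exact Poisson 95% intervals, and the widest gaps are at Foxd3 (110 against 6.57 CPM) and Zeb1 (30.3 against 5.80 CPM).

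The first comparison asked how these genes differ between McSCs that have begun to differentiate in early anagen and mature melanocytes of the bulb. Foxd3, Zeb1, Zeb2, Pax3 and Tfap2a were lower in the bulb by more than 2-fold, and none of the 10 was higher by that margin. Of the 8020 genes that reached 10 CPM in one or both groups, 28.7% were lower and 16.3% higher by at least 2-fold, and all 10 genes met that level. Zeb1 and Foxd3 met it through early anagen alone. On the log2 scale the median ratio (bulb to early anagen) was -0.92 over the 10 genes and -0.19 over all 8020.

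Among the genes at the head of the lineage, Mitf (ENSMUSG00000035158, chr6:97807052-98021349, plus strand, GRCm38) had 33784 UMIs in early anagen and 18415 in the bulb. Its log2 ratio was -0.44 (-0.46 to -0.41), which is 1.35-fold lower in the bulb, and -0.25 relative to the median of all genes. Sox10, the crest factor that switches on Mitf (ENSMUSG00000033006, chr15:79154908-79165240, minus strand), was higher in the bulb, at 155 against 120 CPM, with a log2 ratio of 0.37 (0.32 to 0.41). Pax3, the paired-domain factor of melanoblasts and stem cells (ENSMUSG00000004872, chr1:78101267-78197134, minus strand), was lower in the bulb at 141 against 376 CPM, with a log2 ratio of -1.41 (-1.45 to -1.38). Mitf, Sox10 and Pax3 thus took 3 different courses between the same libraries.

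Of the factors that work beside Mitf, Tfap2a (ENSMUSG00000021359, chr13:40715302-40738376, minus strand) was 2.43-fold lower in the bulb, with a log2 ratio of -1.28 (-1.34 to -1.22). Irf4, an interferon regulatory factor that acts on Tyr in pigment cells (ENSMUSG00000021356, chr13:30749226-30766976, plus strand), was higher in the bulb at 36.6 against 24.9 CPM, with a log2 ratio of 0.55 (0.46 to 0.64). Tbx2, a T-box repressor known to hold back senescence (ENSMUSG00000000093, chr11:85832551-85841948, plus strand), was lower at 16.4 against 24.0 CPM, with a log2 ratio of -0.56 (-0.67 to -0.44). Irf4 and Sox10 were the 2 of the 10 genes with the highest log2 ratios.

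The repressors of the Zeb and Snai families did not move together. Zeb2, the zinc finger factor needed for melanocyte differentiation (ENSMUSG00000026872, chr2:44983632-45117395, minus strand), was 2.85-fold lower in the bulb at 71.9 against 205 CPM. Its relative Zeb1 (ENSMUSG00000024238, chr18:5591860-5775467, plus strand) was 5.23-fold lower, with 324 UMIs in the bulb and 2296 in early anagen. Snai2, or Slug, a factor of melanoblast migration (ENSMUSG00000022676, chr16:14705852-14709385, plus strand), was slightly higher in the bulb at 19.6 against 15.6 CPM, with a log2 ratio of 0.33 (0.21 to 0.45). Foxd3 (ENSMUSG00000067261, chr4:99656299-99658622, plus strand) had the lowest ratio of the 10, with 8316 UMIs in early anagen and 367 in the bulb, a 16.7-fold lower level and a log2 ratio of -4.06 (-4.22 to -3.91).

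Antisense genes overlap Zeb2, Tfap2a and Zeb1, and the highest of each was low beside its partner. Zeb2os had 5.52 CPM in early anagen and 7.41 CPM in the bulb, Gm26688 at Tfap2a had 4.90 and 2.65 CPM, and Gm10125 at Zeb1 had 2.31 and 0.447 CPM. Cell Ranger, the program that made the counts, assigns reads of these kits by strand. The scaling moved the bulb comparison as a whole. Trimmed-mean (TMM) factors raised every log2 ratio by 0.35 and median-ratio factors by 0.43. Of all genes past 2-fold, the share that was higher in the bulb was then 53.6% and 57.4% in place of 36.2%. All of the 10 genes but Mitf kept their direction under both. Mitf stood at -0.09 and -0.004, and the second value gives no direction beyond counting error. The genes at least 2-fold lower became 4 and 3, as Tfap2a stood at -0.93 and -0.85 and Pax3 at -0.98 under median-ratio factors.

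**Figure D2:**
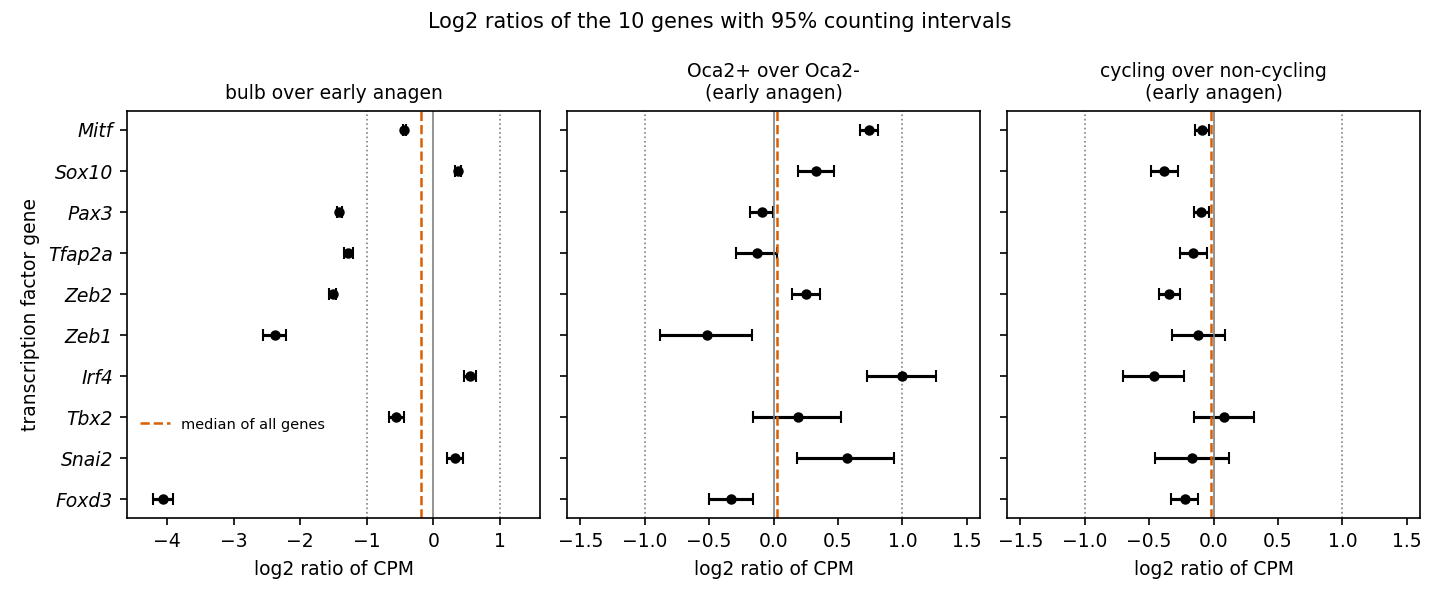
Log2 ratios of CPM for the 10 genes in 3 comparisons, with exact 95% intervals of counting error, dotted lines at 2-fold and a dashed line at the median of all genes of at least 10 CPM. The bulb panel has a wider axis and reaches -4.06 at Foxd3, while all ratios within the early-anagen library stay inside 2-fold, with Irf4 at 0.995 in Oca2+ cells nearest to it.

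Shares of cells with a UMI were compared after each cell had been thinned at random to 5000 UMIs. Mitf was then detected in 73.9% of early-anagen McSCs (72.2% to 75.5%, Clopper-Pearson 95% interval) and in 74.9% of bulb melanocytes. Sox10 was detected in 43.2% and 52.3%, Pax3 in 78.4% and 49.5%, and Zeb2 in 59.9% and 30.1%. Foxd3 was detected in 38.6% of early-anagen McSCs and in 3.35% of bulb melanocytes, and Zeb1 in 13.4% and 3.35%. With all UMIs kept, the shares were 95.9% and 94.9% for Mitf and 80.5% and 8.998% for Foxd3. Mitf was thus detected in like shares of cells in both states, whereas Foxd3 and Zeb1 were found in few bulb cells.

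Droplets also hold free RNA, so the same shares were taken in cells with at least 50 UMIs of the 8 keratinocyte markers. There were 117 such cells in early anagen (median 35562 UMIs) and 39 in the bulb (median 11678 UMIs), of which 2 and 19 were also among the selected cells. Mitf was detected in 26.5% and 7.69% of them, Pax3 in 23.1% and 7.69%, Sox10 in 17.9% and 7.69%, and Zeb2 in 17.1% and 5.13%. Median Dct in the reference cells was 3 and 1 UMIs, against 191 and 225 in the selected cells. In early anagen 7 of the 117 reference cells held 5 or more of the 10 genes at 5000 UMIs. Droplets with RNA of both cell types were not separated out, so these shares are not a measure of free RNA alone. Foxd3 was detected in 10.3% (5.41% to 17.2%) of the early-anagen reference cells and in 0 of the 39 bulb ones, which allows a share of up to 7.69%. Zeb1 and Tbx2 were also detected in 0 of these 39 cells. At 5000 UMIs the shares of bulb melanocytes with a UMI were 3.35% for Foxd3, 3.35% for Zeb1 and 7.15% for Tbx2. These were below that limit and were not separable from background at this depth and number of reference cells. With all UMIs kept, and so not at 1 depth, Tbx2 was detected in 20.6% (19.3% to 21.9%) of bulb melanocytes. Its share in the reference cells was then 2.56% (0.0649% to 13.5%). Foxd3 was then detected in 8.998% and Zeb1 in 8.14% of bulb melanocytes, against 0 of the 39 reference cells (interval up to 9.03%). In early anagen Tfap2a and Snai2 were no more frequent in McSCs than in the reference cells, at 43.6% against 43.6% for Tfap2a and 6.93% against 10.3% for Snai2. In the bulb Tfap2a was detected in 21.0% of melanocytes and 30.8% of the reference cells, and Snai2 in 9.19% and 5.13% (0.627% to 17.3%). Both are also known from the epidermis, so the reference cells may express them themselves and give no measure of free RNA for them. With this reference, their shares in either library cannot be read as expression by melanocytes alone. In the reference cells Tfap2a was 121 and 63.4 CPM and Snai2 24.4 and 14.8 CPM, and each such cell held at least 50 keratinocyte marker UMIs. The selected cells held 21.8 and 48.7 CPM of these 8 markers. The part of keratinocyte RNA in the counts of Tfap2a and Snai2 was not tested. The same limit applies to the ratios of these 2 genes between the libraries.

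**Figure D3:**
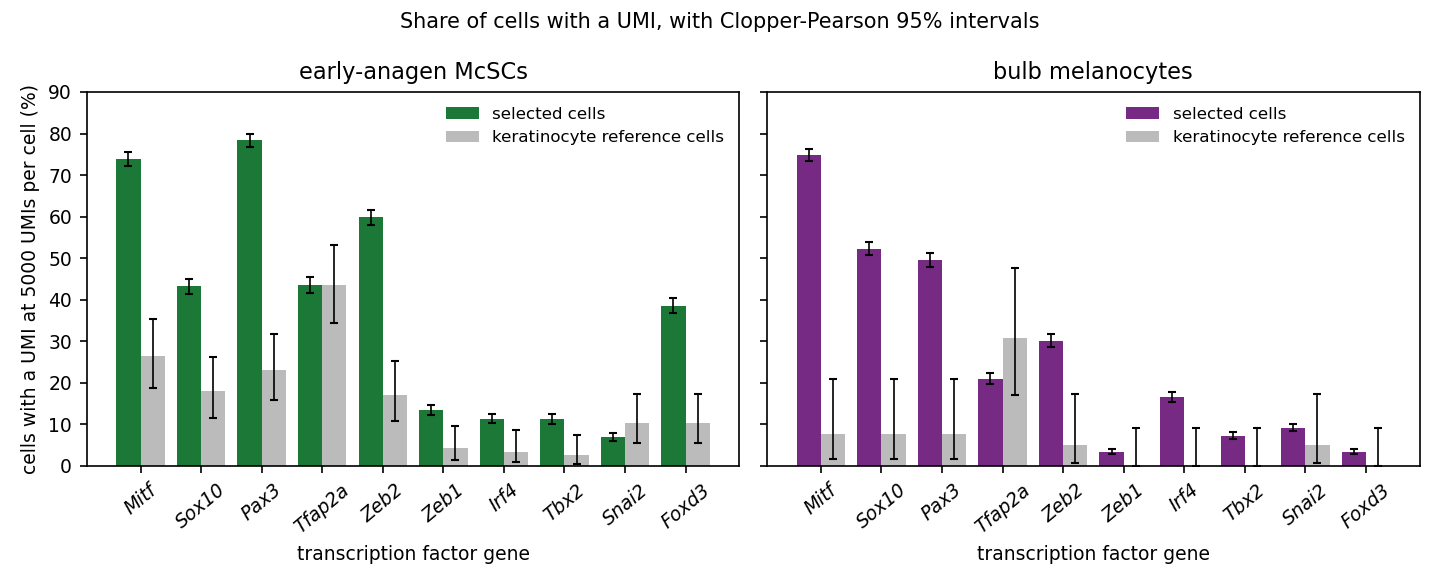
Percent of cells with a UMI of each gene at 5000 UMIs per cell, in selected cells (colour) and in keratinocyte reference cells of the same library (grey), with Clopper-Pearson 95% intervals. Tfap2a and Snai2 are the genes whose early-anagen shares do not exceed the reference, and Foxd3 drops from 38.6% in early anagen to 3.35% in the bulb.

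Single cells held several of these factors at once. At 5000 UMIs per cell the median number of the 10 genes with a UMI was 4 for early-anagen McSCs and 3 for cells of the bulb, against 1 and 0 in the reference cells. Cells with 5 or more made up 31.7% (29.9% to 33.4%) of early-anagen McSCs and 7.18% (6.37% to 8.05%) of bulb melanocytes. Mitf, Sox10 and Pax3 were all detected in 27.2% of early-anagen McSCs and 20.6% of bulb melanocytes. In early-anagen McSCs the variance over the mean at 5000 UMIs was highest for Mitf, at 2.78, with a highest count of 26. Mitf also had the highest mean, at 2.17 UMIs, against 1.96 for Pax3 and 0.0847 for Snai2. The ratio rises with the mean where cells differ, so it does not rank the genes by how variable they are. In bulb melanocytes this ratio was 1.57 for Mitf, with a highest count of 12. For the other 9 genes it lay between 1.06 and 1.48 in early anagen and between 0.967 and 1.14 in the bulb, where 1 is the value of counting error alone. Over 45 pairs of the 10 genes, Pearson's correlation over early-anagen cells at 10000 UMIs ran from -0.01 to 0.23 and over bulb cells from -0.03 to 0.08, and correlations this weak in sparse counts were not read further.

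The second comparison split early-anagen McSCs by Oca2, a late pigmentation gene that the study used to mark the more differentiated of them. With every cell cut at random to 10000 UMIs, 316 of 2785 cells (11.3%) had at least 1 Oca2 UMI, against 0 of the 117 early-anagen reference cells, which allows a share of up to 2.56%. Mitf and Irf4 were higher in these Oca2+ cells, Sox10, Zeb2 and Snai2 were higher by less, and Zeb1 and Foxd3 were lower. None of the 10 genes passed 2-fold in either direction, against 1.6% of 7757 genes higher and 2.01% lower. The median log2 ratio was 0.22 over the 10 genes and 0.03 over all. The Oca2+ cells had a median of 27160 UMIs before thinning against 24119, and 22.5% of them were cycling by the definition below against 37.7% of Oca2- cells. The 8 keratinocyte markers summed to 15.8 and 27.0 CPM and the 6 immune markers to 6.01 and 19.3 CPM in Oca2+ and Oca2- cells, and their part in the differences was not tested.

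Mitf stood at 683 CPM (655 to 713) in Oca2+ and 409 CPM (401 to 417) in Oca2- McSCs, with a log2 ratio of 0.74 (0.67 to 0.81). Irf4 stood at 46.8 CPM in 148 UMIs and 23.5 CPM in 580 UMIs, a 1.99-fold difference with a log2 ratio of 0.995 (0.73 to 1.26), and its log2 ratio ran from 0.92 to 1.19 over the other settings tried. Sox10 was 153 against 122 CPM (log2 0.33), Zeb2 was 251 against 211 CPM (0.25) and Snai2 was 23.1 against 15.6 CPM (0.57). Zeb1 was 23.1 against 33.0 CPM (-0.51) and Foxd3 was 95.6 against 120 CPM (-0.33). Pax3 differed little at 366 against 390 CPM (-0.09, -0.18 to -0.00), and the intervals of Tfap2a (-0.29 to 0.03) and Tbx2 (-0.16 to 0.52) held 0. Among cells without a UMI of Mki67 or Top2a, Mitf was 680 CPM in 245 Oca2+ cells and 413 CPM in 1537 Oca2- cells, so its difference was as large within non-cycling cells.

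Mitf was also higher at more Oca2 UMIs within early anagen, from 409 CPM at 0 UMIs through 630 at 1 UMI and 654 at 2 UMIs to 796 CPM at 3 or more. Irf4 was 23.5, 44.0, 33.8 and 60.9 CPM over the same classes, the last resting on 92 cells. Zeb1 was 33.0, 28.3, 18.5 and 17.4 CPM. Bulb cells were also thinned to 10000 UMIs for these classes, which left out 446 with fewer UMIs and kept 3288. In bulb melanocytes Mitf did not follow Oca2, at 349 CPM in cells with 0 to 1 Oca2 UMIs, 335 at 2 to 4, 326 at 5 to 7 and 331 CPM at 8 or more. Sox10 there was 132 CPM in the lowest class and 160 in the highest, and Irf4 29.4 and 38.9.

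**Figure D4:**
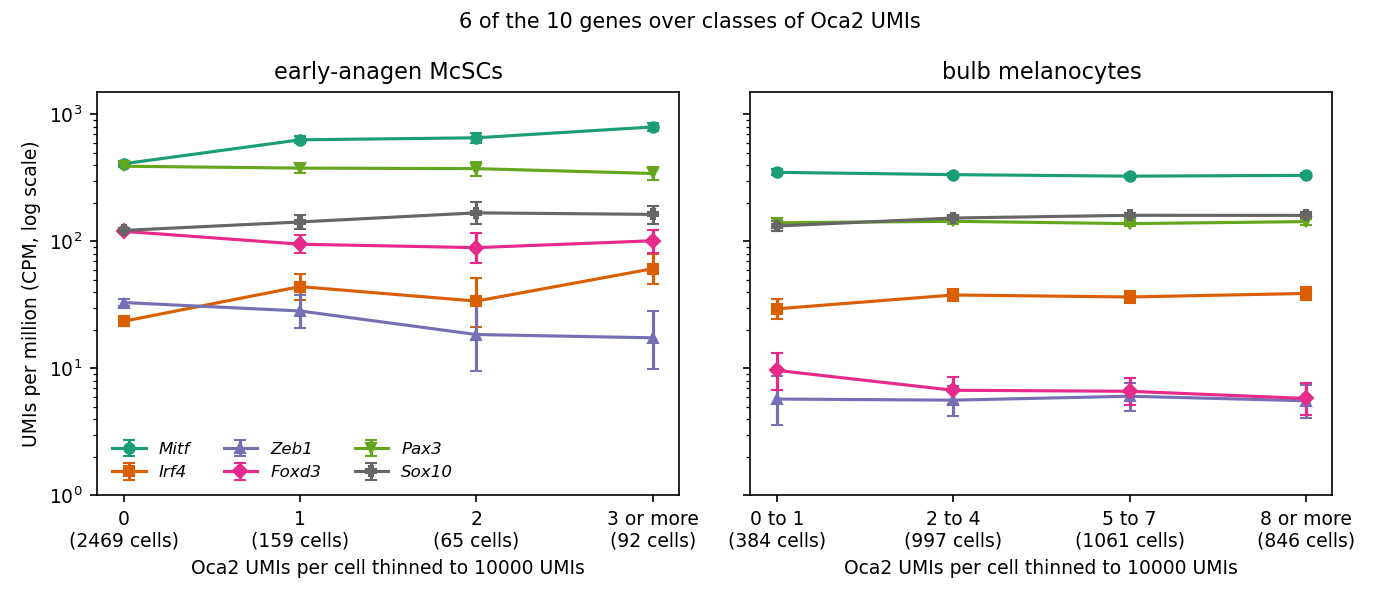
CPM of 6 of the 10 genes (log axis) over classes of Oca2 UMIs in cells thinned to 10000 UMIs, in early-anagen McSCs (left) and bulb melanocytes (right), with exact Poisson 95% intervals and the number of cells under each class. Mitf goes from 409 to 796 CPM in early anagen and stays between 326 and 349 CPM in the bulb.

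Oca2+ cells of both libraries were then set side by side at 10000 UMIs per cell. Of the 3288 bulb melanocytes with at least that many UMIs, 3128 were Oca2+. Mitf was 333 CPM in Oca2+ bulb melanocytes and 683 CPM in Oca2+ McSCs, which is 2.05-fold lower in the bulb (log2 -1.04, -1.11 to -0.97). Mitf was thus higher in Oca2+ McSCs than in either Oca2- McSCs or bulb melanocytes, while 160 bulb cells without an Oca2 UMI had 333 CPM as well. Foxd3 was 6.71 CPM in Oca2+ bulb melanocytes and 95.6 CPM in Oca2+ McSCs, 14.2-fold lower (log2 -3.83). Pax3 (log2 -1.37), Tfap2a (-1.24), Zeb2 (-1.77) and Zeb1 (-2.01) were also lower in the bulb, and the interval of Sox10 held 0 (-0.11 to 0.16). In all 6 of the 10 genes were lower by at least 2-fold and none higher, against 27.3% and 13.6% of the 7885 genes of at least 10 CPM. Irf4 was 37.6 CPM in Oca2+ bulb melanocytes and 46.8 CPM in Oca2+ McSCs (log2 -0.32, -0.57 to -0.06). These ratios use the plain total of UMIs. The TMM and median-ratio factors of the whole libraries were not applied to them. These would raise every bulb ratio by 0.35 or 0.43 on the log2 scale, which is more than the size of the Irf4 ratio. Either shift would leave Mitf and Tfap2a short of 2-fold, and the larger one Pax3 as well. The count of 6 thus holds for the plain total only.

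The third comparison split early-anagen McSCs by the proliferation genes Mki67 and Top2a. With at least 1 UMI of the pair at 10000 UMIs, 1003 cells (36.0%) were called cycling and 1782 not. None of the 10 genes passed 2-fold in either direction, against 5.02% of 7748 genes higher and 0.503% lower in cycling cells. The median log2 ratio was -0.16 over the 10 genes and -0.02 over all. The intervals of 7 genes lay below 0, those of Zeb1, Tbx2 and Snai2 held it, and none lay above. The share of all genes with an interval below 0 is not given here, so the 7 are not set against a background. Irf4 stood at 21.0 CPM where these genes were detected and at 29.0 CPM where they were not (log2 -0.46, -0.70 to -0.23), and Sox10 was 105 against 137 CPM (-0.38, -0.49 to -0.28). Zeb2 was 184 against 233 CPM (-0.34), Foxd3 106 against 124 CPM (-0.22) and Tfap2a 112 against 125 CPM (-0.16). Mitf at 423 against 449 CPM (-0.09) and Pax3 at 371 against 397 CPM (-0.10) were nearly level. Over classes of Mki67 and Top2a UMIs, Mitf was 449 CPM at 0, 419 at 1 to 2, 375 at 3 to 9 and 479 CPM at 10 or more, so its level did not follow their number, whereas Sox10 was 137, 121, 94.8 and 91.8 CPM. Cycling cells had a median of 34630 UMIs before thinning and non-cycling cells 21146.5, their keratinocyte markers summed to 28.9 and 24.0 CPM, and the part of either in the differences was not tested.

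Ordering the cells by Mitf itself, a split chosen after the other values had been seen, set its UMIs beside those of its targets. In early anagen the 16 targets, which include pigment enzymes, transporters and receptors, summed to 16989.6 CPM in 346 cells with 0 Mitf UMIs at 10000 UMIs and to 28495.1 CPM in 308 cells with 10 or more. Trpm1 was 302 CPM in the lowest class, 514, 585 and 882 CPM in the classes between, and 1366 CPM in the highest. Tyr was 416 and 840 CPM and Kit, the receptor for stem cell factor, 384 and 607 CPM in the lowest and highest classes. Vim, the vimentin gene, ran the other way, from 6348 to 3444 CPM. Sox10 was 99.7 and 191 CPM and Pax3 298 and 460 CPM in the same classes, and Foxd3 103 and 122 CPM. In bulb melanocytes the targets summed to 65721.3 CPM in 301 cells with 0 Mitf UMIs and 67705.8 CPM in 583 cells with 6 or more, and Trpm1 was 4032 and 4211 CPM. The summed targets and Trpm1 thus differed with Mitf UMIs in early anagen and hardly in the bulb, where Mitf counts per cell were also less spread. Mlana, Tyrp1 and Pmel made up most of the sum, at 5565, 5333 and 4316 of 20731 CPM over all early-anagen McSCs. In the bulb they were 20325, 13524 and 15240 of 67618 CPM. The sum therefore says little of the other targets.

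**Figure D5:**
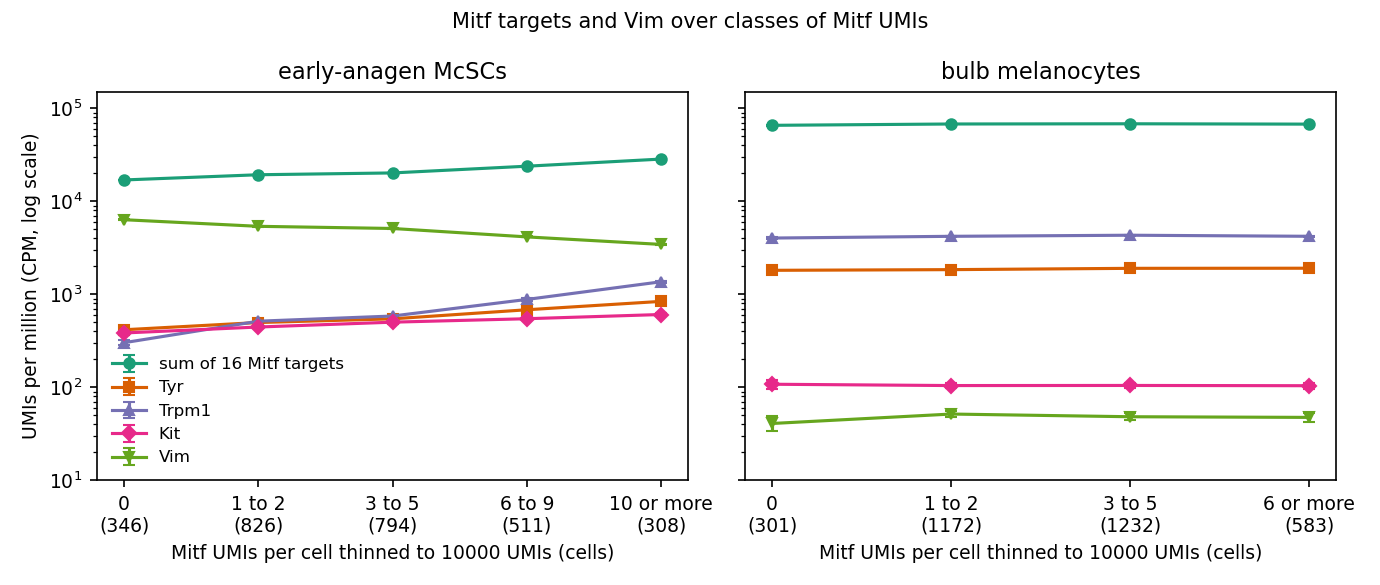
CPM (log axis) of the 16 Mitf targets summed, of the targets Tyr, Trpm1 and Kit, and of Vim over classes of Mitf UMIs per cell at 10000 UMIs, with exact Poisson 95% intervals and numbers of cells. In early anagen (left) Trpm1 goes from 302 to 1366 CPM and Vim from 6348 to 3444 CPM, and in the bulb (right) Trpm1 stays between 4032 and 4324 CPM.

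The same ordering by Foxd3 gave another picture. Early-anagen McSCs with 4 or more Foxd3 UMIs (198 cells) had 466 CPM of Mitf against 433 CPM in 1188 cells with none. Pax3 was 525 against 355 CPM, Zeb2 287 against 189 CPM and Snai2 35.4 (27.6 to 44.7) against 13.2 CPM (11.2 to 15.5). Trpm1 was lower in the Foxd3-rich cells at 424 against 736 CPM, Oca2 was 13.6 against 29.5 CPM, and Vim was higher at 6272 against 4568 CPM. In the classes between, at 1 and at 2 to 3 Foxd3 UMIs, Trpm1 was 638 and 661 CPM. The 16 targets summed to 21440.1, 20852.6, 21503.8 and 19288.4 CPM from the lowest to the highest class, and Kit was 480 CPM in both of these. In the bulb, the 213 cells with a Foxd3 UMI had 355 CPM of Mitf (330 to 381) against 331 CPM (325 to 338), 134 against 142 CPM of Pax3 and 17.8 against 20.2 CPM of Snai2, with overlapping intervals for each. At 5000 UMIs per cell Foxd3 in the bulb was not separable from background, and its variance over the mean was 0.998. Whether these bulb classes mark different cells therefore cannot be told. Some other genes did differ between them beyond counting error, which leaves out the spread of those genes among cells. Oca2 was 508 (478 to 539) against 554 CPM (546 to 563), Vim was 65.7 against 47.5 CPM, and the 16 targets summed to 65705.6 against 67965.1 CPM, with intervals that did not overlap for each.

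Genes of the same pathway were counted from fixed lists. Over all 8020 genes of at least 10 CPM, 28.7% were at least 2-fold lower in the bulb and 16.3% higher. Of the 16 Mitf targets, all of at least 10 CPM, 10 were at least 2-fold higher in the bulb and 3 lower, with a median log2 ratio of 1.52, while the log2 ratio of Mitf itself was -0.44 with the plain total and -0.004 with median-ratio factors. The highest ratio was that of Gpr143, a melanosome receptor, at 730 against 59.7 CPM (12.2-fold), followed by Slc45a2, a melanosome transporter (6.91-fold), and Trpm1 (5.92-fold). The 3 lower targets were Bcl2, a survival gene (5.77-fold lower), Kit (4.51-fold lower) and Met, the receptor for hepatocyte growth factor (2.32-fold lower). These counts use the plain total. The shift of 0.43 from median-ratio factors would leave Met (log2 -1.21) short of 2-fold and carry Rab27a (0.82) and Ednrb (0.81) past it. With those factors 27.0% of all genes were higher and 20.0% lower. In Oca2+ over Oca2- McSCs 6 targets were at least 2-fold higher and none lower, against 1.6% and 2.01% of 7757 genes. The median log2 ratio of the targets was 0.93, with Trpm1 the highest at 4.37-fold. In cycling over non-cycling cells no target passed 2-fold, against 5.02% of 7748 genes higher and 0.503% lower. The intervals of all 16 lay below 0 (median log2 -0.34, against -0.02 over all genes). The share of all genes with such intervals is not given here either.

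Of 10 partners and cofactors of Mitf, 9 reached 10 CPM. In the bulb 1 was at least 2-fold higher and 5 were lower (median log2 -1.39), against 16.3% and 28.7% of all genes. These counts use the plain total, and the shift of 0.43 from median-ratio factors would leave Ctnnb1 (log2 -1.39) short of 2-fold. The higher one was Lef1, a partner in the WNT pathway, at 77.0 against 17.9 CPM (4.30-fold). It was also the one that passed 2-fold in Oca2+ McSCs, at 34.5 against 15.7 CPM, where 1.6% of all genes were higher by that margin. The lower ones were Crebbp (5.02-fold), Ep300 (log2 -2.09) and Chd7 (3.22-fold), which encode chromatin cofactors, with Creb1 and Ctnnb1. Ep300 and Chd7 met 10 CPM through early anagen alone. Of 15 close paralogs, 3 reached 10 CPM, and Tfeb, a relative of Mitf that drives lysosome genes, was 2.81-fold higher in the bulb at 263 against 93.7 CPM. Tfap2b was level at 76.4 and 76.8 CPM, so that in the bulb it stood above Tfap2a, and Tfe3 was 11.2 against 17.0 CPM. Tfec and Pax7 had 0 UMIs in both libraries, and Sox9 had 5 UMIs in the bulb and 142 in early anagen.

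Of 8 genes regulated by Zeb and Snai factors or marking cell junctions, 4 reached 10 CPM. All 4 were at least 2-fold lower in the bulb (median log2 -5.62), against 28.7% of all genes. Fn1, Cdh1 and Cdh2 met that level through early anagen alone, so the filter favoured a lower bulb ratio for them. Below that level, Esrp1 had 30 UMIs in the bulb and 14 in early anagen, Epcam 11 and 222, Grhl2 3 and 11, and Ocln 0 and 4. Vim was 50.2 CPM there against 4602 CPM, Fn1, the fibronectin gene, 0.143 against 13.2 CPM, Cdh1, the E-cadherin gene, 3.87 against 102 CPM, and Cdh2, the N-cadherin gene, 3.04 against 38.7 CPM. Zeb1 and Zeb2 are known to repress Cdh1. All 3 were lower in the bulb, where the share of cells with Zeb1 was not separable from background. A link between their levels was not tested. In Oca2+ McSCs Vim (2.51-fold) and Fn1 (12.3-fold, 4 against 385 UMIs) were lower by at least 2-fold, and Cdh1 was 74.4 against 112 CPM (log2 -0.59). Of all genes, 2.01% were lower there by at least 2-fold. Fn1 met 10 CPM there through Oca2- cells alone.

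Over early-anagen cells, 1 of the 10 genes had another gene with a correlation of at least 0.3 among the 2830 genes of at least 50 CPM. Mitf was most like Id2 (Pearson's r = 0.40 over 2785 cells), Id3 (0.39) and Vgll2 (0.30), the first and second being inhibitors of DNA binding that answer to BMP signals. These cells share 1 library and were set to 1 depth, and the values are a description. From cells with 0 to those with 10 or more Mitf UMIs, Id2 was 49.7 and 515 CPM and Id3 76.6 and 777 CPM. Both were picked by their correlation with Mitf over these same cells, so this rise follows from the choice and adds nothing to it. The choice also weighs on any contrast with bulb cells. In bulb melanocytes Id2 was 1682 and 1646 CPM and Id3 1590 and 1580 CPM in the lowest and highest classes of Mitf UMIs.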

How the data were processed

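Single-cell RNA was sequenced from 1 library of early-anagen McSCs and 1 of bulb melanocytes, each pooled from 4 mice. Per barcode and gene, the deposited values are UMI counts as the authors obtained them, made with Cell Ranger 6.0.1 (named in the submitters' processing notes) against mm10/GRCm38. No normalization had been applied, and barcodes had at least 500 UMIs in early anagen and 504 in the bulb. Groups came from the labels, and no telogen cells were used here.

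UMIs were summed over the selected cells and scaled to CPM by the plain total. CPM and shares have exact 95% Poisson and Clopper-Pearson intervals, and ratios an exact interval for 2 Poisson counts. These cover counting error only, and cells are not replicates. A gene at 0 UMIs was given a floor of 3 counts. Comparisons within early anagen used cells thinned to 10000 UMIs, shares between libraries 5000 UMIs. Bulb cells split by Oca2, Mitf or Foxd3 UMIs, and bulb correlations, were also at 10000 UMIs. These used 3288 bulb cells and left out 446 with fewer UMIs. A call meant a ratio of at least 2 among genes that reached 10 CPM in one or both groups. No caller of doublets was run, and cells with the most UMIs were left out as an alternative. The interval code was tested on simulated data. A planned reference of cells with 0.5% of UMIs from Krt10 and Krt14 found 53 cells in early anagen and 0 in the bulb. It was replaced, after seeing the data, by at least 50 UMIs of 8 keratinocyte markers.

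Named genes were the 10 members, up to 4 genes with the largest ratios of each list, and up to 3 genes with a correlation of at least 0.3. Other genes are named where they complete a small count or were chosen after their values were seen (Sox9, Tfec, Pax7, Tfe3, Creb1, Ctnnb1, Tyr, Kit, Met, Oca2, Mlana, Tyrp1, Pmel). The summed level of 1 further marker list is not reported here. The members and lists were chosen with earlier results of these data known. Gene positions came from GENCODE on GRCm38. Python 3.11.15 with numpy 2.4.6, scipy 1.17.1, pandas 2.3.3 and matplotlib 3.10.9 was used, with R 4.3.3 and edgeR 4.0.16 for the scaling factors.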

Additional observations from a re-analysis of the deposited data

How the results depend on the processing

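With 1 library per group no test could be run and no library could be left out, so the settings below changed the cells, the depth or the scaling. No paired analysis was possible because each group was 1 library. No member changed direction beyond counting error under any setting run. In bulb over early anagen, 39 of 120 gene values moved beyond their counting interval, and the number of genes at least 2-fold lower went from 5 to 3 with median-ratio size factors, since these raise all ratios alike. In Oca2+ over Oca2- McSCs the number at least 2-fold higher went from 0 to 1, which was Irf4, with Krt10 and Krt14 at 0 UMIs, without the 5% of cells with the most UMIs, with another random seed (chosen after seeing the data), with all UMIs unthinned and with at least 2 Oca2 UMIs. Its log2 ratio ranged from 0.92 to 1.19, and that of Mitf from 0.55 to 0.85. In cycling over non-cycling cells 5 of 90 gene values moved, and Irf4 ranged from -0.85 to -0.37. Foxd3 in the bulb ranged from -4.24 to -3.63. The background shares also depended on the lowest level kept. With genes of at least 1 CPM, 3.88% were higher and 4.88% lower in Oca2+ cells and 2.59% lower in cycling cells, and with any UMI 27.1% and 4.04%, and 14.5% higher and 4.49% lower. Cells with 5 or more of the 10 genes depended on depth by construction. At 10000 UMIs they were 71.1% in early anagen and 33.5% in the bulb, and with all UMIs 94.5% and 57.0%. Depth limits Zeb1, Tbx2, Irf4 and Snai2 most, each with fewer than 150 UMIs in Oca2+ McSCs.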

Other observations

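Over early-anagen cells thinned to 10000 UMIs, the genes with the lowest correlation with Mitf were Tnfrsf12a (Pearson's r = -0.41 over 2785 cells), Anxa1 (-0.34) and Lmna (-0.32), named after their values were seen. Tnfrsf12a encodes a receptor of the tumour necrosis factor family, Anxa1 an annexin and Lmna a nuclear lamin. Irf4 was most like Dct (0.22), Tyr (0.21) and Pmel (0.20), all under 0.3 and given as a description. In bulb melanocytes with no Oca2 UMI, 160 in number, Irf4 was 19.4 CPM (13.2 to 27.5) and Sox10 123 CPM, against 37.6 CPM (35.4 to 39.8) and 156 CPM in 3128 Oca2+ bulb melanocytes. In early anagen the 71 cells that were both Oca2+ and cycling had 696 CPM of Mitf (636 to 760), 296 CPM of Pax3 (257 to 339) and 71.8 CPM of Foxd3 (53.5 to 94.4). The 932 cells that were Oca2- and cycling had 402, 377 and 108 CPM of the same genes.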
